A study of Danio rerio with 10 samples.

Results

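The gonadotropin receptor genes lhcgr and fshr and the gonadal peptide hormone genes insl3 and igf3 were followed in the testes of adult zebrafish that had met dioxin early in life. The members were chosen by gene symbol in the platform's probe table, with the probe of highest mean kept per gene, and all 4 were found among 19260 genes, each with 1 probe. The samples were testes of 10 wildtype males of the AB strain (Danio rerio), taken at 1 year of age, with 1 Affymetrix whole-transcript array per male. Of these, 5 males had been exposed for 1 h to TCDD (2,3,7,8-tetrachlorodibenzo-p-dioxin, an activator of the aryl hydrocarbon receptor) in the water at 50 pg/ml, at 3 weeks after fertilization and again at 7 weeks. The other 5 had been given the solvent DMSO on the same schedule. The comparison asks whether brief exposure while the gonad differentiated and matured left a different level of these transcripts in the adult testis.

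Gonadotropins reach the testis from the pituitary. Follicle-stimulating hormone acts through Fshr and luteinizing hormone through Lhcgr, both G protein-coupled receptors that raise cAMP in the cell. In zebrafish, lhcgr is known from Leydig cells, which make androgens, and fshr from Leydig cells as well as from Sertoli cells, which nurse the germ cells. Both somatic cell types answer with peptide hormones that act on spermatogonia. Insl3, a relaxin-type peptide, comes from Leydig cells, and Igf3, an insulin-like growth factor found in fish gonads, comes from Sertoli cells under control of follicle-stimulating hormone.

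All levels are deposited log2 values, and a level of one probe cannot be set against that of another. Array medians lay between 6.71 and 6.87. DMSO 1 resembled the other arrays least, at a mean correlation of 0.918 with them, against 0.952 to 0.961 for each of the others. Its mean over 9 intestine and pancreas markers was 12.34, followed by TCDD 2 at 11.69, and lay between 7.77 and 10.46 in the remaining arrays. Its mean over 6 sperm markers was 7.03, against 9.61 to 10.51 in the other arrays. TCDD 3 and TCDD 4 had the highest means over 6 ovary markers, at 7.63 and 7.83, against 6.62 to 7.06 elsewhere. Markers of Leydig cells (6 measured besides the members) and of Sertoli cells (9 measured) had means of 8.05 to 9.60 and 9.45 to 11.04. None of them lay below the median of all probes on the array, apart from the Sertoli marker gata1a in TCDD 4 and DMSO 1. That is a low bar, since at least 14265 of the 19260 genes had a mean above the median probe. In whole testes, fewer cells of a type and less RNA per cell cannot be told apart.

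None of the 4 members passed a limma adjusted p of 0.05, and 0% of all genes did (percent called 0, smallest adjusted p 0.996). No member (0 of 4) had an unadjusted limma p under 0.05, against 2.48% of all genes, or an exact permutation p under 0.05, against 2.98% of all genes. Groups overlapped for all 4 members, while 0.493% of all genes had groups that did not. The differences of all 4 members lay above 0 (higher in TCDD), as did those of 54.6% of all genes, but the sign of lhcgr and igf3 depended on single arrays.

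**Figure D1:**
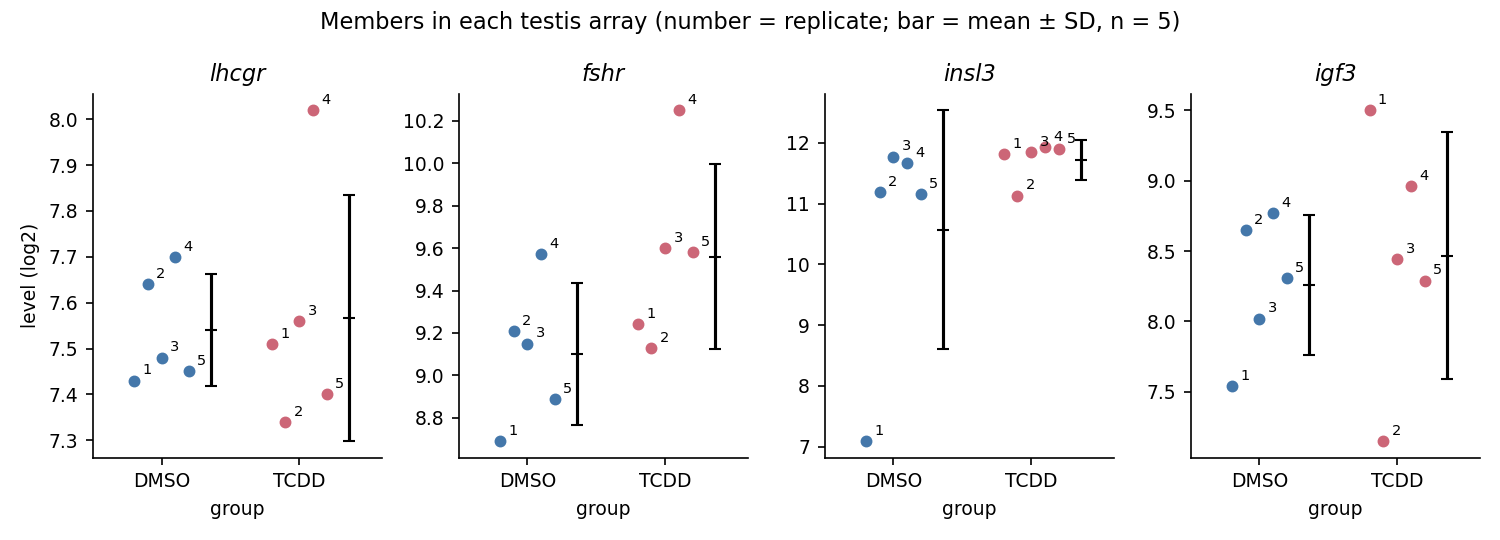
Level (log2, y axis, with its own scale in each panel) of lhcgr, fshr, insl3 and igf3 in each array, by group on the x axis, with the replicate number beside each point and the mean ± SD (n = 5) as a bar. The DMSO 1 array lies at 7.09 for insl3, TCDD 4 is highest for lhcgr at 8.02 and for fshr at 10.25, and the groups overlap in every panel.

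fshr, the receptor of follicle-stimulating hormone, came nearest to a separation of the groups among the receptors. In TCDD 1 to 5 its level was 9.24, 9.13, 9.60, 10.25 and 9.58. In DMSO 1 to 5 it was 8.69, 9.21, 9.15, 9.57 and 8.89. TCDD 4, TCDD 3 and TCDD 5 were the highest arrays, DMSO 4 came next, and the groups overlapped between 9.13 and 9.57. All 5 TCDD arrays lay above the DMSO mean. The means were 9.56 ± 0.44 and 9.10 ± 0.33 (SD, n = 5 each), a difference of 0.46 (SE 0.23, 95% CI -0.04 to 0.96, limma adjusted p = 1.0), and the exact two-sided permutation test gave p = 0.0873. The probe (12985694) lay at the 89.8 percentile of all probes.

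The fshr difference depended on TCDD 4, the array with the highest ovary marker mean. Without TCDD 4 it was 0.29 (95% CI -0.15 to 0.72), and without TCDD 3 it was 0.45 (95% CI -0.12 to 1.02). Without both TCDD 3 and TCDD 4, an alternative chosen after seeing the data, it was 0.22 (95% CI -0.28 to 0.71). It was larger without TCDD 2, at 0.57 (95% CI 0.05 to 1.08), and without DMSO 4, at 0.58 (95% CI 0.06 to 1.09), with limma adjusted p = 1 in both. Ovarian follicle cells also use this receptor, but the 6 ovary markers are mainly oocyte genes and do not measure follicle cells. Of the 6 ovary markers, zp2.1 (8.21 in TCDD 3 and 8.52 in TCDD 4, against 6.55 or less elsewhere), zp3b and btg4 were higher in both of these arrays than in any other, and bmp15, figla and gdf9 were not. TCDD 4 also had the highest mean over Sertoli markers, at 11.04. The part of ovarian or Sertoli cells in the fshr difference was not tested. DMSO 1, with the lowest fshr level, had the lowest Sertoli mean at 9.45. Of the 9 Sertoli markers, amh, gsdf, dmrt1 and inha were at their lowest there, and sox9a, gata4, gata1a, wt1a and cldn11a were not. Without DMSO 1 the fshr difference was 0.36 (95% CI -0.14 to 0.85).

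lhcgr, the receptor of luteinizing hormone, was the steadiest of the members. In TCDD 1 to 5 it was at 7.51, 7.34, 7.56, 8.02 and 7.40. In DMSO 1 to 5 it was at 7.43, 7.64, 7.48, 7.70 and 7.45. TCDD 4 was again the highest array, while the lowest, TCDD 2, also belonged to the TCDD group, so that the DMSO values lay within the TCDD range. The means of 7.57 ± 0.27 and 7.54 ± 0.12 (SD, n = 5 each) differed by 0.03 (SE 0.14, 95% CI -0.28 to 0.34, limma adjusted p = 1.0, exact permutation p = 0.889). Without TCDD 4 the difference was -0.09 (95% CI -0.34 to 0.17), without both TCDD 3 and TCDD 4 it was -0.12 (95% CI -0.42 to 0.18), and without DMSO 1 it was -0.00025. The probe (12999911) lay at the 65.3 percentile of all probes, and whether background narrowed its range was not tested. In DMSO 1, where most other Leydig genes were at their lowest, lhcgr was not: its level there lay 0.09 above its lowest level elsewhere.

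insl3, the relaxin-type hormone of Leydig cells, was high in 9 arrays and low in 1. In TCDD 1 to 5 its level was 11.81, 11.13, 11.84, 11.93 and 11.89. In DMSO 1 to 5 it was 7.09, 11.19, 11.77, 11.66 and 11.15. Outside DMSO 1 the hormone was at 11.13 to 11.93, with TCDD 2, DMSO 5 and DMSO 2 at the lower end and TCDD 4, TCDD 5 and TCDD 3 at the upper. The means were 11.72 ± 0.33 and 10.57 ± 1.96 (SD, n = 5 each), a difference of 1.15 (SE 0.77, 95% CI -0.56 to 2.85, limma adjusted p = 1.0, exact permutation p = 0.0794). The probe (13080854) lay at the 98.3 percentile of all probes.

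The insl3 level of DMSO 1 lay 16.4-fold below the lowest of the other 9 arrays, a gap of -4.03 on the log2 scale. Of 19260 genes, insl3 was the 1 with the largest such gap. Its level in DMSO 1 lay at the 55.2 percentile of that array's probes, and whether background limited the gap was not tested. DMSO 1 was also lowest for 5 of 6 other Leydig markers, by smaller gaps. star, which carries cholesterol into mitochondria, was at 8.80 there and at 10.48 or more elsewhere, a gap of -1.68. cyp17a1, which turns progestogens into androgen precursors, had a gap of -0.96. The other Leydig markers with a gap below 0 were cyp11c1 at -0.88, hsd3b1 at -0.70 and nr5a1a at -0.67, and hsd3b2 was not lowest there. The lowest levels elsewhere were 8.48 to 8.86 for cyp17a1, cyp11c1, hsd3b1 and nr5a1a, against 11.13 for insl3. Gaps from such unlike levels need not be comparable. All 6 sperm markers were lowest in DMSO 1, with gaps of -3.42 to -0.72, and 0 of 9 intestine and pancreas markers were. The part of tissue makeup in the low insl3 level was not tested.

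**Figure D2:**
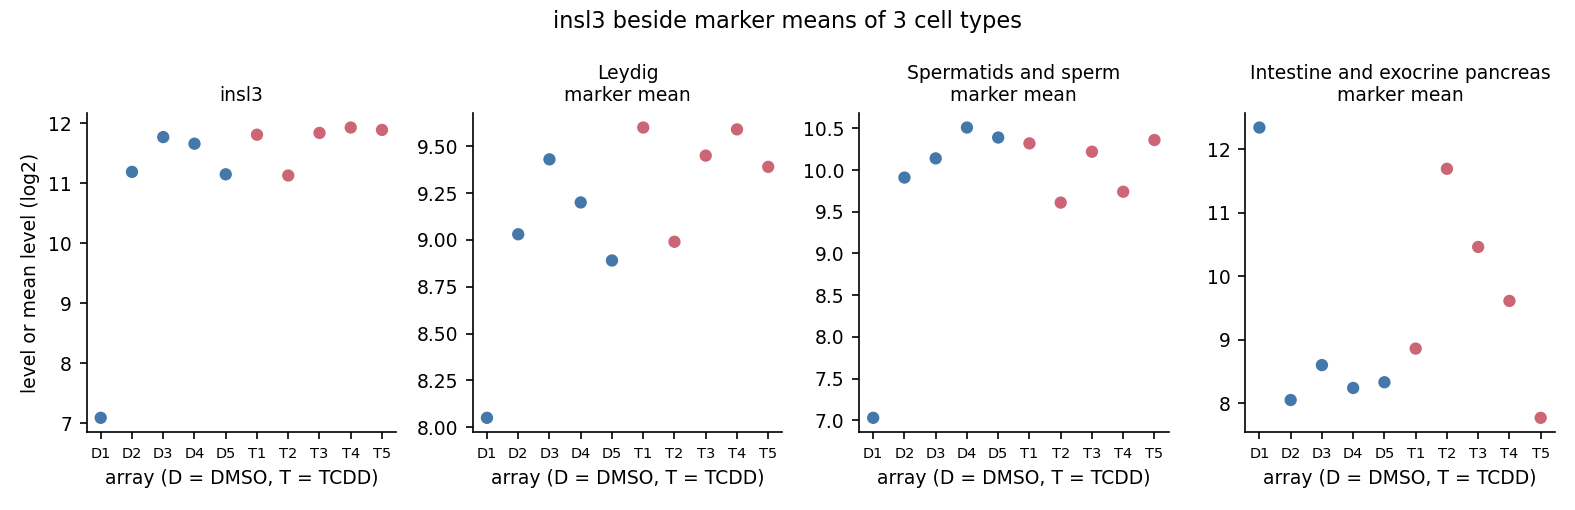
Level of insl3 and mean level of Leydig, sperm and intestine with pancreas markers (log2, y axis, with its own scale in each panel) in each array (x axis, D1 to D5 for DMSO in blue and T1 to T5 for TCDD in red). DMSO 1 is lowest for insl3 (7.09), for the Leydig mean (8.05) and for the sperm mean (7.03), and highest for the intestine and pancreas mean (12.34).

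Most of the insl3 difference between groups came from DMSO 1. Without it the difference was 0.28 (95% CI -0.16 to 0.72, limma adjusted p = 0.757). TCDD 2, the lowest TCDD array for insl3, was also the array with the next highest intestine and pancreas mean. TCDD 3 followed it in that mean, at 10.46, with insl3 at 11.84. DMSO 5 and DMSO 2 had insl3 levels near that of TCDD 2, at 11.15 and 11.19, with intestine and pancreas means of 8.33 and 8.05. With both DMSO 1 and TCDD 2 left out, the difference was 0.43 (95% CI 0.08 to 0.78, limma unadjusted p = 0.0219, adjusted p = 0.78). That alternative was chosen after seeing the data, and in its fit 6.18% of all genes had an unadjusted p under 0.05. In that set the TCDD arrays lay at 11.81 to 11.93 and the DMSO arrays at 11.15 to 11.77, and these ranges follow from leaving out TCDD 2.

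**Figure D3:**
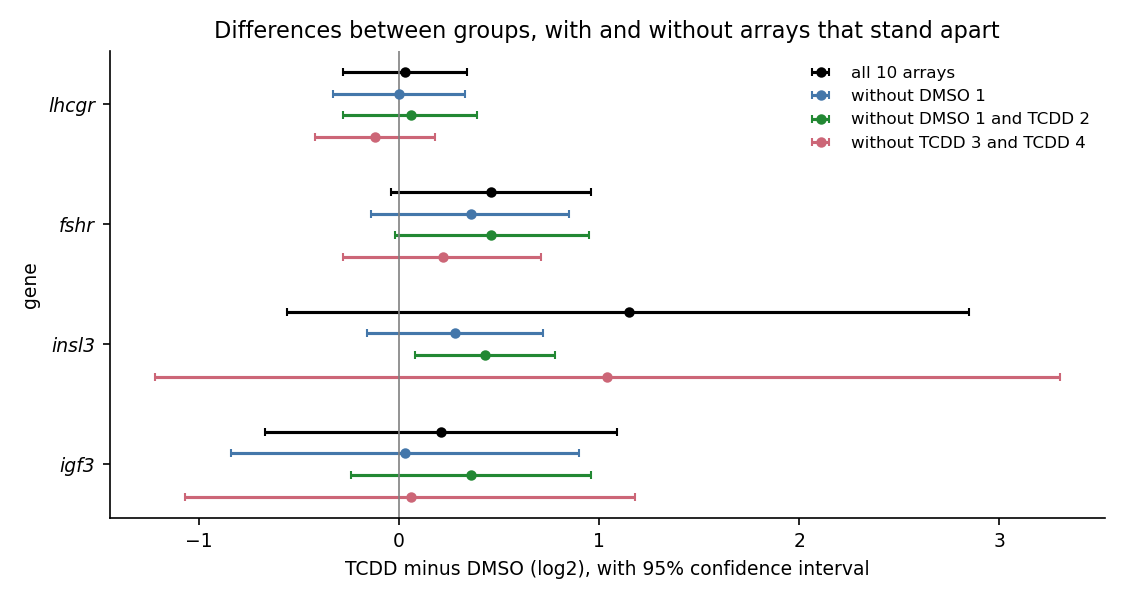
Difference between groups (TCDD minus DMSO, log2, x axis) with its 95% confidence interval for each member (y axis), over all 10 arrays and without arrays that stand apart. The sets without DMSO 1 and TCDD 2 and without TCDD 3 and TCDD 4 were chosen after seeing the data. The insl3 difference is 1.15 over all arrays and 0.28 without DMSO 1, the fshr difference is 0.46 and is 0.22 without TCDD 3 and TCDD 4, and lhcgr stays near 0.

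igf3, the gonadal insulin-like growth factor, varied widely from fish to fish, more so in the TCDD group. In TCDD 1 to 5 its level was 9.50, 7.15, 8.44, 8.96 and 8.29. In DMSO 1 to 5 it was 7.54, 8.65, 8.02, 8.77 and 8.31. The TCDD group held both the highest array, TCDD 1, and the lowest, TCDD 2, and the DMSO values lay between them. Outside DMSO 1 the DMSO values lay between 8.02 and 8.77. The means were 8.47 ± 0.88 and 8.26 ± 0.50 (SD, n = 5 each), a difference of 0.21 (SE 0.40, 95% CI -0.67 to 1.09, limma adjusted p = 1.0, exact permutation p = 0.675). Without TCDD 1 the difference was -0.05 (95% CI -0.87 to 0.78), without TCDD 4 it was 0.09, without DMSO 1 it was 0.03 and without TCDD 2 it was 0.54 (95% CI -0.15 to 1.23). Both arrays with the lowest igf3, TCDD 2 and DMSO 1, had the highest intestine and pancreas means. TCDD 3 had the next highest mean, at 10.46, with igf3 at 8.44. Its slc15a1b, fabp2, vil1 and cdx1b were at 9.12 to 11.73, against 7.86 or less outside TCDD 2, DMSO 1 and TCDD 3. Its prss1, prss59.1, prss59.2, ela2 and cpa5 lay within the range of those remaining arrays. Without both TCDD 2 and DMSO 1 the igf3 difference was 0.36 (95% CI -0.24 to 0.96). The probe (13251263) lay at the 78.2 percentile of all probes.

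The members differed in how far they varied between fish of one group. The pooled SD within groups was 0.21 for lhcgr, 0.39 for fshr, 0.71 for igf3 and 1.41 for insl3. Among the genes nearest in mean level (1001 genes, or 765 for insl3) these lay at the 30.1, 63.2, 92.4 and 99.5 percentile. Without DMSO 1 the pooled SD of insl3 was 0.33, at the 76.2 percentile, while that of igf3 was 0.70, at the 95.7 percentile, that of fshr 0.38, at the 84.9 percentile, and that of lhcgr 0.22, at the 44.5 percentile. From its lowest to its highest array, igf3 spanned 5.11-fold, fshr 2.95-fold and lhcgr 1.6-fold, while insl3 spanned 28.5-fold with DMSO 1. The wide spread of igf3 was thus present without DMSO 1, and that of insl3 was not. TCDD 2, with igf3 at 7.15, was still in that set, and the spread without both arrays was not computed.

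Levels of fshr and insl3 followed a like order across the 10 arrays. Their Spearman rho was 0.92 (permutation p = 0.00057, 0.00342 adjusted over the 6 pairs of members), with a Pearson r of 0.63 (permutation p = 0.0945, adjusted 0.189), in which DMSO 1 lay far from the rest. Without the arrays farthest from the fshr median, DMSO 1 and TCDD 4, r was 0.71 (n = 8, descriptive). For lhcgr and igf3 rho was 0.82 (permutation p = 0.00591, adjusted 0.0177) and r was 0.59 (permutation p = 0.0802, adjusted 0.189), or 0.63 without DMSO 4 and TCDD 4. For the receptors lhcgr and fshr r was 0.78 (permutation p = 0.0122, adjusted 0.073) and rho 0.60 (permutation p = 0.0717, adjusted 0.108), but without TCDD 4 and DMSO 4 r was 0.25, so that this relation rested on those arrays. The other 3 pairs had r of 0.30 to 0.51 and rho of 0.45 to 0.62, with adjusted permutation p of 0.108 or more. Without DMSO 1, rho was 0.88 for fshr and insl3 (permutation p = 0.0031, adjusted 0.0186) and 0.78 for lhcgr and igf3 (permutation p = 0.0174, adjusted 0.0523). Each group holds 5 arrays, too few for a correlation within it. The permutations did not keep the groups apart, so a difference between groups can enter these relations and their p. Marker levels of testis cells also differed between arrays, and their part in these relations was not tested.

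**Figure D4:**
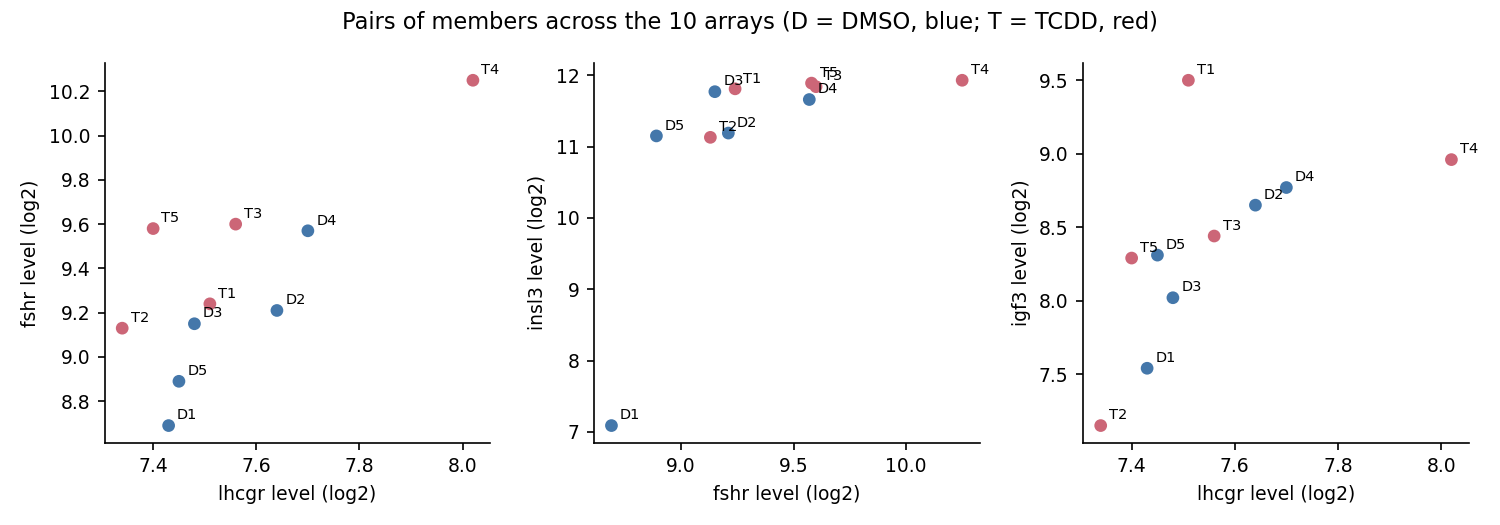
Levels (log2) of 3 pairs of members across the 10 arrays, with lhcgr against fshr, fshr against insl3 and lhcgr against igf3 (D for DMSO in blue, T for TCDD in red, with the replicate number). fshr and insl3 share most of their order (rho 0.92), with DMSO 1 lowest in both and TCDD 4 highest in both.

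The genes whose pattern was most like each member were taken by Pearson r across arrays among 14265 genes brighter than the median probe, as a description. For lhcgr they were ctnnd2a (r 0.950), znf536 (0.945) and 42sp43 (0.919) over 10 arrays, and ctnnd2a and znf536 were again the nearest without DMSO 1, at 0.956 and 0.943, followed by smarcc2 at 0.917. For fshr they were pard6a (0.939), map3k21 (0.924) and plpp7a (0.920), and without DMSO 1 sobpa (0.960), pard6a (0.938) and cast (0.936). TCDD 4 was the highest array for ctnnd2a, znf536, 42sp43, pard6a, map3k21, plpp7a, smarcc2 and sobpa, as it was for both receptors. These genes were chosen for following receptors that peaked in TCDD 4, so the shared peak follows from the choice. cast was highest in DMSO 1. For igf3 the nearest was celsr2, a cadherin-type adhesion receptor gene, at 0.971 over 10 arrays and 0.964 over 9. Next came atxn7l2a (0.931) and mlxip (0.928), and without DMSO 1 mlxip (0.945) and sgf29 (0.942). For insl3 the list depended on DMSO 1. Over 10 arrays it held mkrn4 (0.982), cyb5d1 (0.981) and cimap1b (0.979), all lowest in DMSO 1, which again follows from the choice. Without that array it held laptm4a (0.978), atp5mc1 (0.974) and eci1 (0.969). In DMSO 1 itself, where insl3 was lowest, atp5mc1 and eci1 were at their highest, at 11.59 and 9.22. laptm4a was highest in TCDD 5.

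The ligands of the receptors are pituitary hormones, and the levels of those measured overlapped between the groups. fshb, the beta chain of follicle-stimulating hormone, was at 7.71 to 8.11 in TCDD and 7.85 to 8.22 in DMSO, a difference of -0.15 (95% CI -0.41 to 0.12). cga, the alpha chain that both gonadotropins share, was at 4.92 to 5.39 and 4.96 to 6.23, at the 23.4 percentile of all probes. It differed by -0.46 (95% CI -0.96 to 0.04), or -0.37 without DMSO 1. gpha2, a related alpha chain, differed by -0.12 (95% CI -0.50 to 0.26), and lhb was not analysed here. A list of 11 measured genes held gonadotropins, thyrotropin, related hormone chains, gonadotropin-releasing hormone and receptors of these hormones. Of the 11, 3 lay above 0, against 54.6% of all genes. Their median was -0.15, against 0.018 for all genes, and 0 had an unadjusted p under 0.05, against 2.48%. gphb5, the member with the next smallest p after cga, differed by -0.30 (95% CI -0.71 to 0.11). Pituitary markers had a mean of 6.63 to 6.88 in TCDD and 6.75 to 7.10 in DMSO. These 7 markers include fshb, cga and tshba of the list above, and 3 or 4 of them lay below the array median on each array.

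Receptors for the peptide hormones had levels that overlapped between the groups. rxfp2a and rxfp2b belong to the family of RXFP2, the INSL3 receptor of mammals. rxfp2a was at 9.30, 9.12, 8.98, 9.85 and 9.42 in TCDD 1 to 5. It was at 8.81, 9.15, 9.61, 9.42 and 9.49 in DMSO 1 to 5, a difference of 0.04 (95% CI -0.40 to 0.47). rxfp2b was lowest in DMSO 1, at 7.24, as insl3 was, and lay between 8.08 and 8.92 in the other arrays. It differed by 0.03 (95% CI -0.64 to 0.70), and by -0.28 without DMSO 1. rxfp2l and rxfp1, the relaxin receptor of mammals, differed by -0.10 (95% CI -0.46 to 0.26) and -0.22 (95% CI -0.68 to 0.24). The receptors of insulin-like growth factors had narrow ranges. igf1ra was at 7.84 to 8.15 over all arrays, with a difference of 0.06 (95% CI -0.19 to 0.30). igf1rb was at 9.53 to 9.81 outside DMSO 1, where it was 8.90, and differed by 0.09 (95% CI -0.29 to 0.47), or -0.08 without that array.

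A list of 26 measured genes held relaxin-type and insulin-like peptides, their receptors and adaptors, and the mRNA-binding igf2bp genes. Of the 26, 12 lay above 0, against 54.6% of all genes, and the median was -0.02. Those with an unadjusted p under 0.05 numbered 0 higher and 1 lower, against 0.800% and 1.68% of all genes. The 1 gene was rxfp3.3a3, of the relaxin-3 receptor family, at -0.26 (95% CI -0.52 to -0.01, limma adjusted p = 1.0), with a probe at the 44.8 percentile. igf2b, an insulin-like growth factor gene, was at 8.13, 8.49, 8.19, 8.96 and 8.54 in TCDD 1 to 5. It was at 8.75, 7.71, 7.54, 8.32 and 7.70 in DMSO 1 to 5, a difference of 0.45 (95% CI -0.10 to 1.01). DMSO 1, so low for insl3, was the highest DMSO array for igf2b, and without it the difference was 0.64.

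Binding proteins hold insulin-like growth factors outside cells. Of 15 measured genes of these proteins and of their processing, 9 lay above 0, against 54.6% of all genes. The median was 0.15, and 0 had an unadjusted p under 0.05, against 2.48%. Without DMSO 1, 2 of the 15 had an unadjusted p under 0.05, against 6.65% of all genes. igfbp2b differed by 0.69 (95% CI -0.04 to 1.41) and igfbp2a by 0.83 (95% CI -0.10 to 1.76). Both were highest in TCDD 5, at 9.23 and 9.93, the array with the highest mean over 7 liver markers (11.32, against 6.99 to 9.28 elsewhere). The part of liver tissue in these differences was not tested.

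Below the receptors, differences of cAMP pathway genes had a median near that of all genes. Of 47 measured genes 33 lay above 0, against 54.6% of all genes, with a median of 0.05, and 0 had an unadjusted p under 0.05, against 2.48%. Without DMSO 1, 25 lay above 0, against 47.4% of all genes, the median was 0.03 and 1 had an unadjusted p under 0.05, against 6.65%. gnas, the stimulatory G protein alpha subunit that both receptors use, averaged 10.84 and 10.80, a difference of 0.04 (95% CI -0.20 to 0.27). prkar2ab, a regulatory subunit of protein kinase A, had the smallest p. It was at 10.54 to 11.81 in TCDD and 8.82 to 10.97 in DMSO, a difference of 0.83 (95% CI -0.15 to 1.80), or 0.50 without DMSO 1. gipc1, an adaptor gene, differed by -0.16 (95% CI -0.39 to 0.07).

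Genes known to respond to gonadotropins in gonads were counted in a list assembled with earlier results of these data known, so that its count is not independent evidence. The list was not sorted by whether gonadotropins raise or lower a gene, so a count above 0 does not measure a gonadotropin response. Of 23 measured genes 20 lay above 0, with a median of 0.40, against 54.6% above 0 and a median of 0.018 for all genes. Those with an unadjusted p under 0.05 numbered 5 higher and 0 lower, beside 0.800% and 1.68% of all genes, and 0 passed the limma adjusted p. Without DMSO 1, 18 lay above 0, against 47.4% of all genes, with a median of 0.29, and 4 had an unadjusted p under 0.05, beside 6.65% of all genes. The genes with the smallest p were nr5a1b, a nuclear receptor gene of the steroidogenic factor 1 family, at 0.98 (95% CI 0.47 to 1.50), and sik1, a cAMP-induced kinase gene, at 0.91 (95% CI 0.37 to 1.44, limma adjusted p = 1.0 for both). sik1 was at 9.66, 10.12, 8.81, 9.10 and 9.54 in TCDD 1 to 5. It was at 8.23, 8.67, 8.21, 8.81 and 8.78 in DMSO 1 to 5. Groups did not overlap for these 2 genes of 23, beside 0.493% of all genes. For sik1 the separation was smaller than the rounding, with TCDD 3 and DMSO 4 both at 8.81. sik1 was highest in TCDD 2, where igf3 and lhcgr were lowest and fshr and insl3 were the lowest of the TCDD group. Leydig and Sertoli markers share genes with this list. Leydig marker means were 8.99 to 9.60 in TCDD and 8.05 to 9.43 in DMSO, and Sertoli marker means were 10.05 to 11.04 and 9.45 to 10.44.

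**Figure D5:**
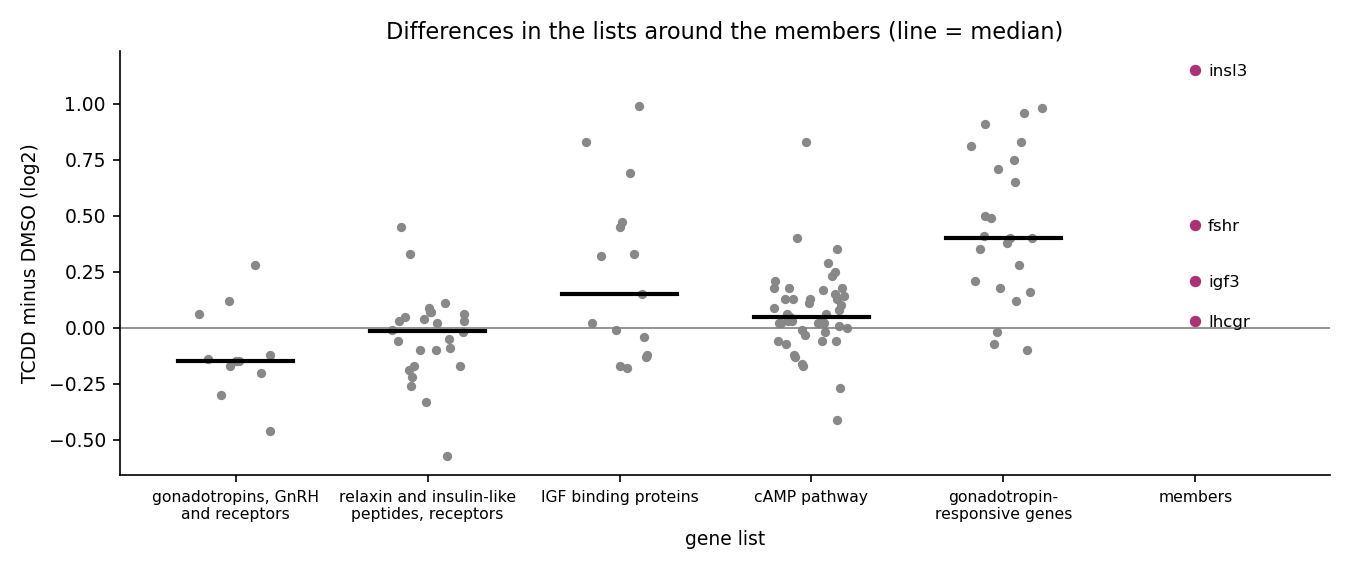
Difference between groups (TCDD minus DMSO, log2, y axis) of each measured gene in 5 lists (x axis, black line for the list's median), with the 4 members at the right. The list of gonadotropin-responsive genes has a median of 0.40, and the medians of the other lists lie between -0.15 and 0.15.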

How the data were processed

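The deposited values, 1 column per array, were read as log2 expression values made by the authors. Their span from 1.25 to 14.61 gave the base, and how background and scale were set is not given in the sources used here. Of 75212 probes, 20806 had 1 gene symbol in the platform annotation, 855 several and 53551 none. Probes with several symbols named no gene. The brightest probe per gene was kept (19260 genes), and each member had 1 probe. TCDD was set against DMSO in limma 3.58.1 under R 4.3.3 (lmFit, eBayes), with Benjamini-Hochberg adjustment over all genes and a threshold of 0.05. Exact permutation tests used all 252 arrangements (smallest p 0.00794), and correlations 100000 resamples. Tested on simulated data for this comparison (19260 genes, 200 changed), the fit recovered 61.6% of 2-fold and 93.4% of 4-fold changes, with 4.85% of calls false. The simulated noise was normal, independent between genes and equal in spread on every array. The real data hold arrays that stand apart, such as DMSO 1, so these rates need not hold for them. Precision is limited by the number of arrays (median SE 0.18).

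The members and lists were chosen with earlier results of these data known. The text names the members and the genes listed as their ligands or receptors or as relatives of these, such as gpha2 and rxfp1. It also names the 2 genes per list with the smallest p. The 3 genes most like each member over 10 arrays and without DMSO 1 are named too, except provisional clone names. Other genes are markers given beside a result and gnas, added after its values were seen. The labels number biological replicates in both groups and do not say whether equal numbers share a litter or day. Deviations of same-numbered arrays correlated between -0.58 and 0.29, so no pairing was used. Alternatives were leaving out arrays, blocking on the replicate number, weighting the arrays, centring each array on its median, quantile normalization, robust estimation with a variance trend, leaving out dim genes, averaging all probes, the exact permutation test and another threshold. Leaving out both DMSO 1 and TCDD 2, or both TCDD 3 and TCDD 4, was chosen after seeing the data. No genome coordinates or sequences were used.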

Additional observations from a re-analysis of the deposited data

Results flagged for a closer look

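A value was singled out where it lay far from the other 4 arrays of its group by Dixon's 95% criterion. The criterion was applied to both groups of 41 named genes (82 groups), of which chance flags about 1 in 20, and the genes were partly chosen for being alike. insl3 lay far below its group in TCDD 2, at 11.13, near its 11.15 in DMSO 5, and in DMSO 1, at 7.09. In the same DMSO 1 array gpha2 (7.31), rxfp2b (7.24) and igf1rb (8.90) were low, as were mkrn4 (8.45), cyb5d1 (7.62) and cimap1b (7.20), which had been named for following insl3 over 10 arrays. In TCDD 2 laptm4a (10.60), atp5mc1 (10.19) and eci1 (8.70) were low, all named for following insl3 without DMSO 1. In TCDD 4 znf536 (10.07) and smarcc2 (9.37) were high, both named for following lhcgr. DMSO 1 and TCDD 2 had the highest intestine and pancreas marker means (12.34 and 11.69), and TCDD 4 the highest ovary mean (7.83). The part of those tissues in these values was not tested.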

How the results depend on the processing

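No member passed the adjusted threshold under any alternative run. The sign of fshr and insl3 was the same throughout. The lhcgr difference turned from 0.03 to -0.09 without TCDD 4, to -0.00025 without DMSO 1 and to -0.12 without both TCDD 3 and TCDD 4, and the igf3 difference from 0.21 to -0.05 without TCDD 1. With single arrays left out, lhcgr ranged from -0.09 to 0.08, fshr from 0.29 to 0.58, insl3 from 0.28 to 1.45 and igf3 from -0.05 to 0.54. With array weights insl3 was 0.50 and igf3 0.07. With the replicate number as a block, which the check of deviations did not bear out (1 of 10 arrays correlated best with its own number), the differences were the same and fshr had an interval of 0.08 to 0.84 (limma adjusted p = 1.0). The count of genes past the adjusted threshold was 0 over all arrays, 0 to 1 with single arrays left out (1 without TCDD 2) and 1 without both DMSO 1 and TCDD 2. The count at an unadjusted p under 0.05 was 478, and 1400 with array weights, 1280 without DMSO 1, 1190 without both DMSO 1 and TCDD 2, 289 without DMSO 2, 255 with only bright genes and 65 at a threshold of 0.01. Median centring moved the median of all genes from 0.018 to 0.059. Apart from arrays left out and the fewer genes or stricter threshold, the cause of these shifts was not tested.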

Other observations

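Beside insl3, the genes that lay farthest below all other arrays in DMSO 1 included genes of the sperm tail and of sperm and egg contact, chosen here after their values were seen. tekt1, a microtubule protein of cilia and flagella, was at 7.33 in DMSO 1 and at 10.76 or more elsewhere. dcst1, a gene with a role in fertilization, was at 6.84 and at 10.20 or more elsewhere. cfap126, a gene of cilia and their basal bodies, was at 7.73 and at 10.99 or more. Among the 15 genes with the largest gaps, insl3 was the 1 that had been listed as a Leydig marker. igf3, by contrast, was at 7.54 in DMSO 1, above its level of 7.15 in TCDD 2, and lhcgr was at 7.43, above its 7.34 in TCDD 2. The mean over 5 spermatogonia markers was lowest in DMSO 1, at 9.76. Of these, piwil1, ddx4 and dazl were at their lowest there, with gaps of -0.93, -0.62 and -1.04, gfra1a was at its highest (6.50, against 5.18 to 5.99 elsewhere), and zbtb16a, at 10.07, lay within its range of 8.98 to 10.44 in the other arrays.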
